A study of Mus musculus with 4 samples.

Results

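The genes described here were 3 Notch receptors (Notch1, Notch2 and Notch3), 3 of their ligands (Jag1, Jag2 and Dll1) and 4 genes that the pathway is known to switch on (Hes1, Hes5, Hey1 and Heyl). They were taken by gene symbol from the 32285 genes of the feature lists. All 10 were found, and each had at least 1 unique molecular identifier (UMI, the tag of 1 captured mRNA molecule) in every library. A second list of 43 genes held the other receptors, ligands, modifying enzymes, proteases, endocytic and nuclear factors and targets of the pathway.

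The study profiled molar tooth organs of wild-type C57BL/6J mice by droplet-based 3′ single-cell RNA sequencing. The 4 groups were maxillary (upper) and mandibular (lower) molars on the embryonic day E15.5, and maxillary and mandibular molars on the postnatal day P1. No group carried a mutation, transgene or treatment. Each group was 1 library of pooled tissue, so there was no replicate, no test between groups was possible, and every interval given below is a 95% interval that covers counting error only. After filtering, 8331 cells remained at E15.5 maxillary, 6007 at E15.5 mandibular, 13492 at P1 maxillary and 7360 at P1 mandibular, with median depths of 9882, 11572, 3929 and 10885 UMIs per cell. Values in lists of 4 are given in this order of libraries throughout.

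Notch receptors are membrane proteins that proteases cut when a Jagged or Delta ligand on a neighbouring cell binds them. The freed intracellular part enters the nucleus, joins the DNA-binding protein Rbpj and switches on genes of the Hes and Hey families, which encode basic helix-loop-helix repressors. In the tooth the pathway is known for receptors and ligands that lie in different layers of the enamel organ, the epithelium that makes enamel, and in blood vessels for its part in arterial endothelium and in the mural cells around it.

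Cells were clustered in each library without the Notch pathway genes, and clusters were named from marker lists, so a class name, or a name with "-like", means that its list scored highest among the lists with at least 3 markers detected in the cluster, not that they were its leading genes. Epithelium held 694, 95, 2109 and 1103 cells, mesenchyme 4952, 2694, 8032 and 3627, endothelium 308, 245, 273 and 165, and pericyte-like cells 94, 65, 174 and 63. Glia-like cells numbered 158, 99, 324 and 56, and muscle cells 317, 641, 216 and 373. Endothelium at E15.5 included subclusters led by Pf4 (45 and 54 cells) with low median depths of 1743 and 1458 UMIs. Immune and erythroid cells were present in every library, and a class of 847 cells with neuronal markers formed only at P1 maxillary. Of these, 225 were a cluster led by the pituitary hormone genes Pomc, Tshb and Cga. P1 maxillary epithelium included clusters led by Otx2os1 and Aox2 (289 cells), Reg3g and Bpifa1 (289) and Dynlrb2 and Tmem212 (37). Mesenchyme included 515 chondrocyte-like cells at P1 maxillary, 17 at E15.5 maxillary and 0 in both mandibular libraries. Neither class was thus limited to tooth cells, and the part of these clusters in class levels was not tested. Clusters that met no name held 2.80%, 5.04%, 0% and 13.7% of cells and stayed outside the classes.

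The P1 libraries shared 7131 barcodes, which made up 38.1% of the maxillary list and 36.8% of the mandibular list, whereas other pairs of libraries shared 28 to 70. These barcodes were kept at P1 maxillary and left out of P1 mandibular. Nearly every one had more UMIs at P1 maxillary, by a log2 ratio with a median of 2.07 and 5th and 95th percentiles of 2.0 and 2.18. Which jaw these cells came from was not tested, so P1 maxillary values and P1 differences between the jaws rest on this assignment. At P1 maxillary the 5690 cells with a shared barcode had a median of 12238.5 UMIs and an Amelx level (amelogenin, the main enamel matrix protein) of 1198 CPM (UMIs of a gene per 1000000 UMIs). The 7802 other cells had a median of 2506 UMIs, Amelx at 9.74 CPM, and 829 of the cells with neuronal markers together with Pomc, a pituitary hormone gene, at 184 CPM. Main P1 maxillary values are therefore also given for the shared and the other barcodes apart. Values given without the shared barcodes come from clustering the remaining cells anew, so their classes do not hold the same cells as the other barcodes of the main classes.

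Levels are summed UMIs of a gene in a class per 1000000 UMIs of that class (CPM). A gene counted as higher in a cell type where its log2 ratio over all other named cells was at least 2 in every library with at least 50 cells of the class, among genes with at least 20 CPM in the class or the rest. By this rule Notch1 was the member that passed in endothelium (1 of 6 members with enough counts, beside 5.03% of 7043 genes), Jag2 the member that passed in epithelium (1 of 6, beside 2.05% of 6962, lost without the shared barcodes), and Notch3 and Heyl those that passed in pericyte-like cells (2 of 6, beside 2.21% of 6777). No member passed in mesenchyme (0 of 5, beside 3.24% of 6796 genes), glia-like cells (0 of 6, beside 3.43% of 6960), muscle (0 of 6, beside 1.8% of 6777) or immune cells (0 of 5, beside 8.78% of 7257). Jag2 in epithelium and Heyl in pericyte-like cells met the minimum of 20 CPM only through that class. The medians below include such members, so they partly follow from the filter and are a description only. The median log2 ratio of the 6 members compared in pericyte-like cells, Heyl among them, was 1.67 at E15.5 maxillary and 2.42 at P1 mandibular. That of all genes compared was 0.10 and 0.09. In epithelium, with Jag2, the corresponding medians were 0.74 and 1.15 for the members and 0.13 and 0.11 for all genes. They were 1.42 and 1.39 (all genes 0.11 and 0.06) in glia-like cells and 0.21 and 0.62 (-0.03 and -0.09) in muscle. In endothelium they were 0.11 and 0.62 (0.13 and 0.07), in mesenchyme -0.33 and -0.76 (0.35 and 0.14) and in immune cells -1.22 and -0.37 (-0.01 and -0.28). Jag2 in endothelium and Heyl in glia-like cells and muscle were likewise admitted only through those classes.

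**Figure D1:**
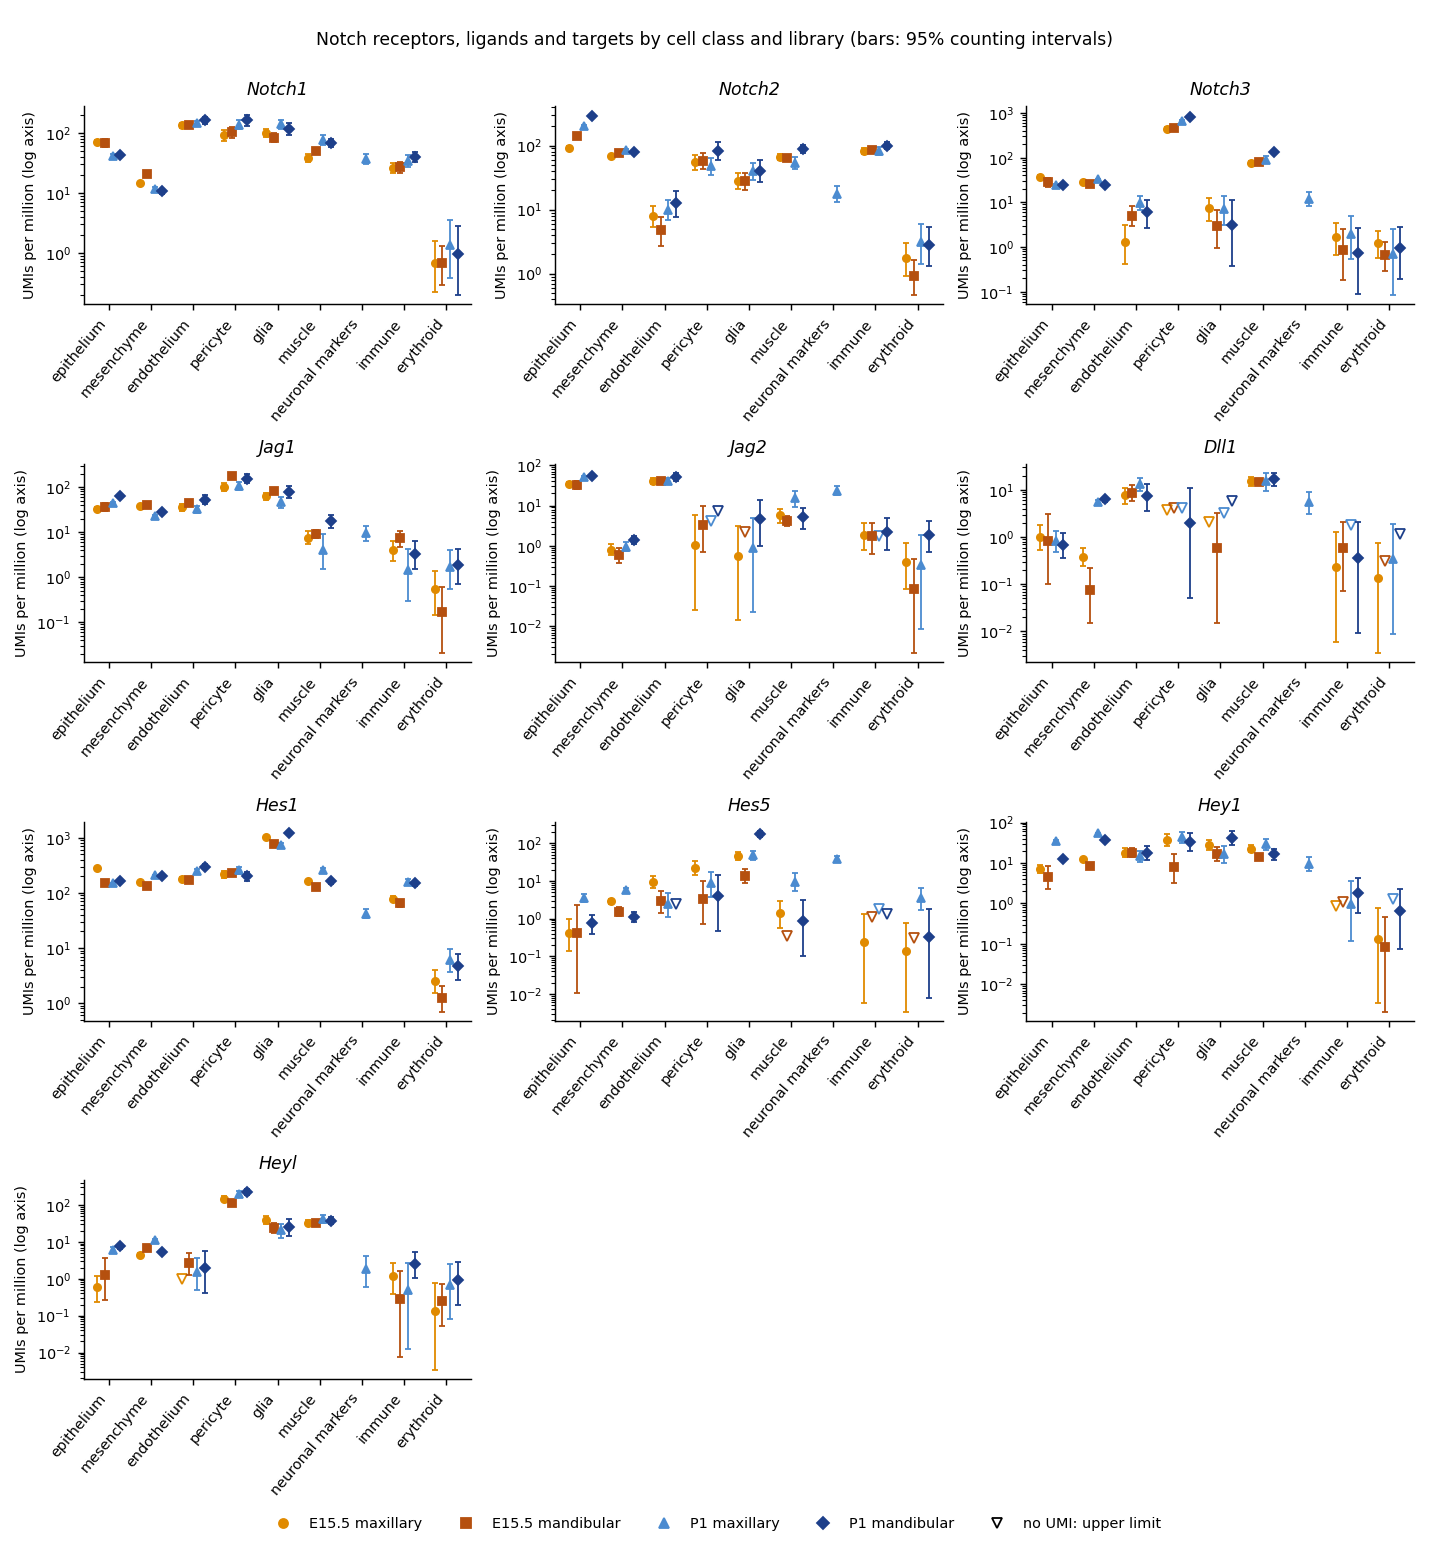
Level of each of the 10 Notch genes (CPM, log axis) in 9 cell classes, 1 point per library with its 95% counting interval; open triangles mark the upper limit that 3 counts give where no UMI was found. Notch3 and Heyl stand highest in pericyte-like cells in all 4 libraries, Jag2 is highest in epithelium and endothelium, and Hes1 is highest in glia-like cells.

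Notch1 (chr2:26457903-26516663, minus strand, mm10) encodes a receptor used in many tissues, including arterial endothelium. Its level in endothelium was 134 CPM (123 to 146), 136 (124 to 150), 145 (132 to 159) and 163 (143 to 185), or 152 in the shared and 123 in the other barcodes of P1 maxillary. These levels lay above all other named cells by log2 ratios of 2.39 (2.24 to 2.53), 2.39 (2.24 to 2.54), 2.68 (2.53 to 2.82) and 2.83 (2.63 to 3.02). Pericyte-like cells, at 90.9, 104, 137 and 162 CPM, and glia-like cells, at 101, 83.7, 139 and 117, followed, and their ranges over the libraries overlapped that of endothelium. Epithelium had 70.9, 68.7, 41.7 and 43.6 CPM and muscle 38.0, 49.6, 76.2 and 68.1, with overlapping ranges below those of endothelium. Mesenchyme, at 14.4, 20.7, 11.8 and 10.6 CPM, lay below these classes in every library. A Notch1 UMI was found in 58.8%, 60.4%, 52.7% and 62.4% of endothelial cells and in 0.429%, 0.496%, 0.361% and 0.483% of erythroid cells, which should lack it, at median depths of 9550.5, 9323, 7136 and 7330 UMIs against 6493.5, 7491.5, 1956 and 5204.

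Notch2 (chr3:98013527-98150361, plus strand) encodes a receptor of wide expression. It was at its highest in epithelium, with 91.5 CPM (86.1 to 97.1), 140 (126 to 156), 200 (194 to 206) and 295 (287 to 303). Mesenchyme (68.8, 77.7, 85.8 and 78.9 CPM), immune cells (81.8, 85.0, 83.1 and 99.6) and muscle (66.5, 64.2, 53.5 and 89.3) overlapped one another. In endothelium Notch2 was low, at 7.86, 4.78, 9.90 and 12.5 CPM, which put it below all other named cells by log2 ratios of -3.06, -3.74, -3.39 and -3.35. At P1 maxillary Notch2 was at 226 CPM in the shared and 101 in the other barcodes of epithelium, 87.0 and 80.2 in those of mesenchyme, and 11.7 (28 UMIs) and 4.78 (4 UMIs) in those of endothelium. The receptors Notch1 and Notch2 thus stood on opposite sides of the other cells in endothelium in all 4 libraries.

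Notch3 (chr17:32120820-32166852, minus strand) encodes the receptor known from pericytes and vascular smooth muscle. In pericyte-like cells it stood at 440 CPM (400 to 484), 454 (411 to 501), 650 (599 to 704) and 832 (755 to 916), and at 696 in the shared and 555 in the other barcodes of P1 maxillary. The log2 ratios over all other named cells were 4.0 (3.85 to 4.15), 4.11 (3.95 to 4.26), 4.51 (4.38 to 4.63) and 5.01 (4.85 to 5.16). Muscle came next with 76.5, 78.7, 89.9 and 134 CPM, and the highest muscle value lay below the lowest value in pericyte-like cells. Mesenchyme (29.0, 25.2, 32.7 and 25.0 CPM) and epithelium (36.7, 28.1, 24.1 and 24.6) overlapped each other, and endothelium had 1.31, 5.08, 9.90 and 5.94. Pericyte-like cells were 1.16%, 1.14%, 1.29% and 0.992% of named cells and held 15.1%, 17.2%, 17.3% and 18.0% of the Notch3 UMIs of those cells. A Notch3 UMI was found in 95.7%, 96.9%, 79.9% and 96.8% of pericyte-like cells and in 1.71%, 0.791%, 0.976% and 0.58% of immune cells, with median depths of 10033.5, 11494, 3895.5 and 7555 UMIs against 9206, 12762, 2690 and 6487.

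Heyl (chr4:123233556-123249875, plus strand), a target of the pathway in mural cells, had the same leading class. In pericyte-like cells it reached 148 CPM (125 to 174), 116 (94.7 to 141), 202 (174 to 233) and 223 (184 to 268), with 228 in the shared and 148 in the other barcodes of P1 maxillary. Its log2 ratios over all other named cells were 4.76 (4.48 to 5.03), 3.66 (3.35 to 3.96), 4.42 (4.18 to 4.65) and 5.07 (4.76 to 5.36). Muscle, at 33.3, 32.4, 41.8 and 37.9 CPM, and glia-like cells, at 39.1, 24.2, 20.6 and 25.1, followed with overlapping ranges, and Heyl in epithelium did not exceed 7.51 CPM. Thinned to 1000 UMIs per cell, 12.8%, 16.9%, 17.2% and 22.2% of pericyte-like cells carried a Heyl UMI. No background share from a class that lacks Heyl is set beside these, so they are not read as shares of expressing cells. The pericyte-like class also held mesenchymal markers: 8 of them summed to 3427, 5317, 3663 and 3540 CPM, with Col3a1 the most abundant, while 7 endothelial markers summed to 75.6, 50.7, 98.6 and 67.1 CPM, with Emcn the most abundant. Cldn5, an endothelial junction gene, was at 0 there at E15.5 maxillary, E15.5 mandibular and P1 mandibular. Their part in the Notch3 and Heyl levels was not tested.

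Among the ligands, Jag1 (chr2:137081456-137116644, minus strand) was the most widely spread. It was highest in pericyte-like cells, at 102 CPM (83.1 to 124), 177 (150 to 207), 109 (88.2 to 132) and 154 (122 to 192). Glia-like cells, at 62.9, 81.9, 45.6 and 78.3, came next and did not overlap pericyte-like cells. The P1 maxillary level in pericyte-like cells was 114 in the shared and 97.5 in the other barcodes. Epithelium (33.4, 36.5, 44.9 and 63.3 CPM), endothelium (35.9, 44.2, 32.2 and 52.8) and mesenchyme (37.4, 39.2, 22.6 and 28.5) had overlapping ranges. Those of epithelium and endothelium also reached into the range of glia-like cells. Jag1 was low in muscle, at 7.55, 9.20, 4.12 and 17.4 CPM, and in immune cells, where it did not exceed 7.25.

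Jag2 (chr12:112907819-112929776, minus strand), the Jagged ligand whose loss is known to disturb molar shape, was in contrast highest in epithelium and endothelium. In epithelium its level was 34.1 CPM (30.9 to 37.6), 33.1 (26.2 to 41.3), 52.1 (49.0 to 55.3) and 55.0 (51.6 to 58.6), and in endothelium 40.9 (34.7 to 47.8), 41.8 (35.2 to 49.3), 40.5 (33.9 to 48.1) and 52.1 (41.3 to 65.0). Mesenchyme, with 0.808, 0.595, 0.954 and 1.42 CPM, lay below the rest of the cells by log2 ratios of -4.41, -3.75, -5.27 and -4.73. Epithelium exceeded the other named cells by 3.46 (3.22 to 3.69), 3.45 (3.06 to 3.83), 3.88 (3.69 to 4.07) and 4.20 (3.96 to 4.44), and held 62.7%, 26.6%, 79.1% and 84.8% of all Jag2 UMIs of named cells while being 8.57%, 1.67%, 15.6% and 17.4% of those cells. Endothelium exceeded the others by 2.84 and 4.24 at E15.5 but by 1.69 and 1.86 at P1, below the threshold of 2. At P1 maxillary the Jag2 level in epithelium was 60.2 CPM in the shared and 21.0 in the other barcodes, and its log2 ratio over the other named cells was 1.78 without the shared barcodes. Jag2 then no longer passed in epithelium, nor did it with cells thinned to 1000 UMIs or at a minimum of 50 CPM.

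Dll1 (chr17:15367354-15376872, minus strand), a Delta ligand, was scarce in all classes. Its level was highest in muscle, at 15.1 CPM (11.9 to 19.0), 14.8 (12.5 to 17.3), 15.1 (9.46 to 22.9) and 16.6 (11.8 to 22.7), followed by endothelium, at 7.60, 8.66, 13.3 and 7.26. Muscle held 53.6% and 80.6% of the Dll1 UMIs of named cells at E15.5 but 4.85% and 10.9% at P1, where mesenchyme, the larger class, held 78.4% and 82.1%. In P1 maxillary muscle Dll1 was at 17.7 CPM in the shared and 10.1 in the other barcodes (17 and 5 UMIs). In epithelium Dll1 did not exceed 1.01 CPM and in pericyte-like cells it was found as a single UMI, at P1 mandibular. No value of Dll1 in these classes reached 20 CPM, so it entered none of the counts above.

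Hes1 (chr16:30064384-30067796, plus strand), a repressor that responds to Notch and to other signals, was found in every class. It was highest in glia-like cells, at 1020 CPM (974 to 1068), 766 (725 to 809), 739 (690 to 791) and 1234 (1149 to 1323), above the other named cells by log2 ratios of 2.67, 2.79, 1.97 and 2.76. The P1 maxillary value just missed the threshold and was 1311 CPM in the shared and 509 in the other barcodes. Pericyte-like cells (215, 229, 255 and 199 CPM), endothelium (181, 172, 253 and 300), mesenchyme (159, 133, 212 and 199), muscle (162, 130, 258 and 162) and epithelium (287, 150, 148 and 167) overlapped. Immune cells, at 78.5, 64.4, 160 and 149 CPM, also reached into this range, and erythroid cells did not exceed 6.18. Clusters led by Cma1 were part of the immune class at P1 but not at E15.5. In P1 maxillary epithelium Hes1 was at 112 CPM in the shared and 289 in the other barcodes, and in endothelium at 292 and 142.

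Hes5 (chr4:154960923-154962371, plus strand), a target known from neural progenitors, was scarce in most classes. In glia-like cells its level was 45.9 CPM (36.4 to 57.0), 13.5 (8.59 to 20.3), 47.4 (35.5 to 62.0) and 174 (143 to 209), from 10, 2, 24 and 7 cells with a UMI. Within P1 maxillary glia-like cells, Hes5 was at 62.7 CPM in the other barcodes (50 UMIs) and at 9.37 in the shared ones (3 UMIs). The P1 maxillary class with neuronal markers, nearly all of it outside the shared barcodes, had 37.6 CPM, with 68 of its 103 UMIs from the Pomc and Tshb cluster, and in mesenchyme and epithelium Hes5 did not exceed 5.78. Mesenchyme, the largest of these classes, nevertheless held 50.5%, 62.6%, 58.5% and 28.7% of the Hes5 UMIs of named cells (156, 62, 376 and 52 UMIs), against 26.2%, 23.2%, 8.24% and 61.3% in glia-like cells.

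Rbpj, the DNA-binding partner of the cut receptor, is known to bind the letters GTGGGAA. These letters, and the same read on the opposite strand of the DNA, which are TTCCCAC, were looked for in the 250 bases before each start in the RefSeq promoter table of GRCm38.p6. The table held 7 of the 10 members, all but Hes1, Hey1 and Heyl, and Hes5 was the member with the letters. The whole stretch before Hes5 is shown, with both matches in capitals, because it is a target of the list and held them in either orientation. It spans chr4:154960673-154960922 on the plus strand, and the matches begin 226 and 83 bases before the start.
Hes5: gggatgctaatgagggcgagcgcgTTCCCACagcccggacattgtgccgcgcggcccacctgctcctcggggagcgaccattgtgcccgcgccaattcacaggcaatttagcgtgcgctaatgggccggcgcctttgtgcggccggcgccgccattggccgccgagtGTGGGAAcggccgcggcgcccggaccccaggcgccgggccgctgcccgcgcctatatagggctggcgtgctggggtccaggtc
Of the 10 targets in both lists, 5 had a sequence and 3 of these held the letters. The other two, Hey2 (chr10:30842967-30843007, minus strand) and Hes7 (chr11:69120256-69120296, plus strand), are shown as 41 bases around the match for comparison.
Hey2: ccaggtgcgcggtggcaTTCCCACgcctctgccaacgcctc
Hes7: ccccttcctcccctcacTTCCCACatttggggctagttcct
Over all genes of the table, 1669 of 27025 (6.18%) held the letters, and among the 41 members and other pathway genes with a sequence 6 did. A match of letters is a description and was not tested as a binding site.

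Hey1 (chr3:8663359-8667256, minus strand), a target known from endothelium and mesenchyme, was broadly spread at E15.5, with 7.08 and 4.61 CPM in epithelium, 12.3 and 8.21 in mesenchyme, 18.1 and 17.9 in endothelium, 36.8 and 7.89 in pericyte-like cells, 28.3 and 17.1 in glia-like cells and 22.7 and 14.3 in muscle. At P1 mesenchyme had 54.7 (52.9 to 56.5) and 37.1 CPM (35.4 to 38.9), against 43.8 (40 UMIs) and 33.5 (17 UMIs) in pericyte-like cells, 17 (19 UMIs) and 42.3 (27 UMIs) in glia-like cells and 14.5 and 17.8 in endothelium. Mesenchyme held 65.6% and 56.3% of the Hey1 UMIs of named cells at E15.5 and 80.3% and 83.7% at P1. Immune cells did not exceed 1.83 CPM.

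Stages were compared within a class and a jaw, and a gene counted where its log2 ratio of P1 to E15.5 was at least 1, or at most -1, in both jaws with at least 20 CPM at the higher stage. In epithelium Notch2 counted as higher at P1 (1 of 6 members, beside 5.66% of 7318 genes, lost under most alternatives) and no member as lower (0 of 6, beside 3.18%). In mesenchyme Hey1 counted as higher at P1 (1 of 5, beside 4.62% of 7330 genes, lost without the shared barcodes) and no member as lower (0 of 5, beside 1.43%). Hey1 met the minimum of 20 CPM only through P1, and it is among the members of the mesenchyme medians below. In endothelium none of 4 members counted as higher (0, beside 0.909% of 6821 genes) or lower (0, beside 0.689%), and in pericyte-like cells none of 7 counted as higher (0, beside 2.45% of 7026 genes) or lower (0, beside 0.655%). The median log2 ratio of the members compared in epithelium was -0.09 in maxillary and 0.45 in mandibular molars, beside 0.06 and 0.00 for all genes, and in mesenchyme it was 0.32 and 0.02, beside -0.02 and -0.01.

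**Figure D2:**
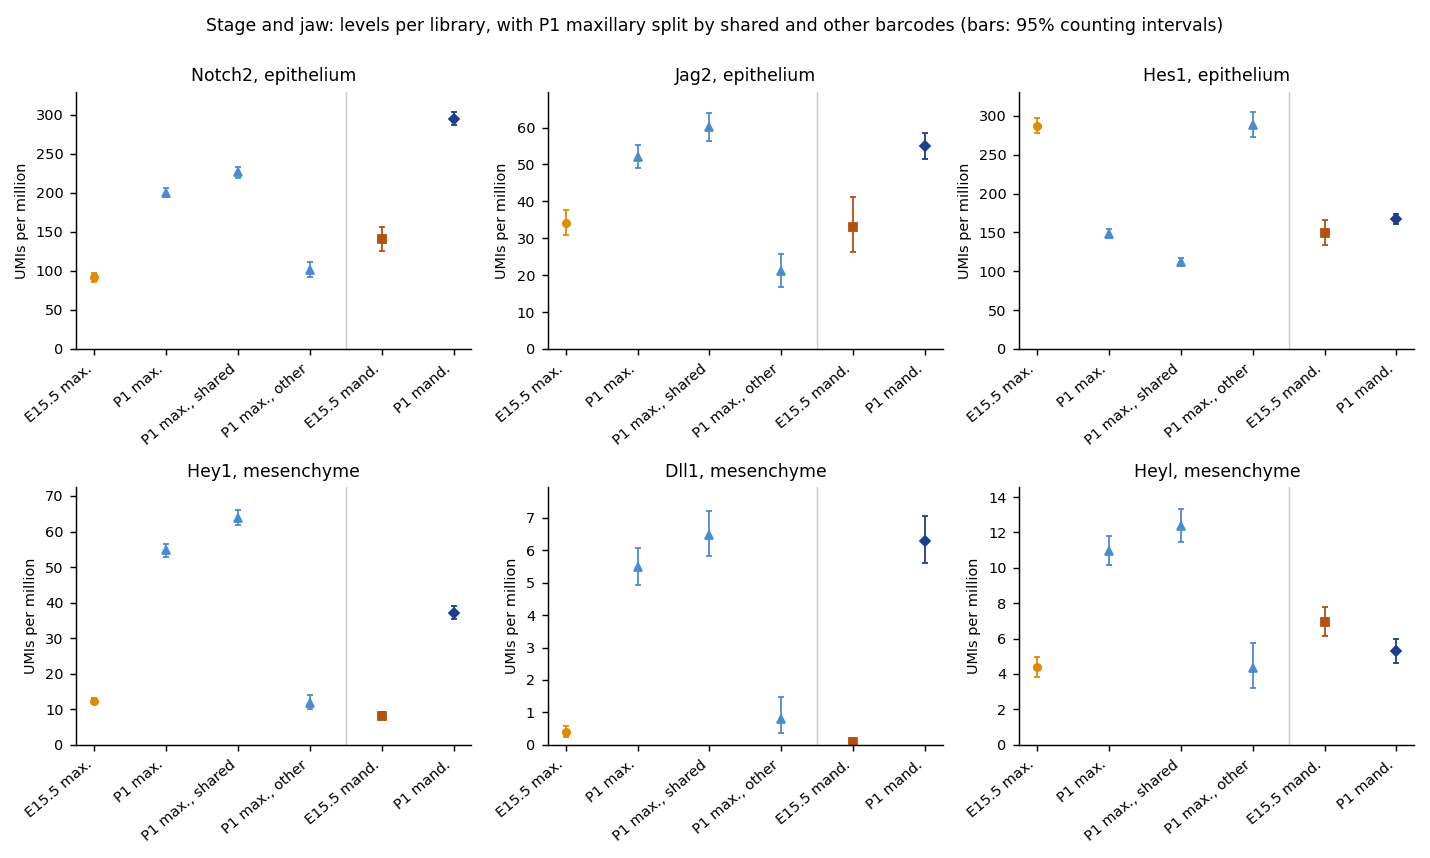
Levels (CPM, linear axis from 0, with 95% counting intervals) of Notch2, Jag2 and Hes1 in epithelium and of Hey1, Dll1 and Heyl in mesenchyme, in each library and in the shared and other barcodes of P1 maxillary. Hey1 in mesenchyme stands at 54.7 and 37.1 at P1 against 12.3 and 8.21 at E15.5, but at 11.8 in the other barcodes of P1 maxillary.

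The Notch2 level in epithelium was 91.5 and 140 CPM at E15.5 and 200 and 295 at P1, log2 ratios of 1.13 (1.03 to 1.23) in maxillary and 1.07 (0.91 to 1.23) in mandibular molars. Both P1 values lay above both E15.5 values. In P1 maxillary epithelium the shared barcodes had 226 CPM (219 to 233) and the other barcodes 101 (91.7 to 111), and the maxillary ratio was 1.30 with the shared barcodes alone and 0.15 without them. The mandibular ratio was 0.39 when each cell had equal weight and 0.57 with at least 2000 UMIs per barcode, so Notch2 then no longer counted. Nor did it without the shared barcodes, with doublets kept, at clustering resolution 0.5 or 2.0, with cells thinned to 1000 UMIs or with unnamed clusters placed. E15.5 mandibular epithelium rested on 95 cells, 21 of them in a subcluster led by Amelx and Calb1, which also led P1 subclusters. Over all cells Amelx was at 8.89 CPM at E15.5 mandibular and 1.69 at E15.5 maxillary. The epithelial class held subclusters with unlike Notch2 levels, from 19.0 to 517 CPM at E15.5 maxillary and from 2.01 to 928 at P1 maxillary among those of at least 20 cells, and they were not matched between the stages. A different mix of cells and more Notch2 in each of them cannot be told apart from class sums.

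Notch1 went the other way in epithelium, from 70.9 and 68.7 CPM to 41.7 and 43.6, ratios of -0.76 (-0.90 to -0.63) and -0.66 (-0.90 to -0.40) that did not reach the threshold. Jag2 was higher at P1 by 0.61 (0.44 to 0.78) and 0.73 (0.40 to 1.08), and Jag1 by 0.43 and 0.80, also below the threshold. Without the shared barcodes the maxillary ratio of Jag2 was -0.66, that of Jag1 0.088 and that of Notch1 -0.86. Hey1 in epithelium was higher by 2.26 (1.94 to 2.61) and 1.45 (0.58 to 2.47), but its P1 mandibular level of 12.6 CPM was under 20. Heyl in epithelium went from 0.590 and 1.26 CPM (7 and 3 UMIs) to 6.01 and 7.51. At P1 maxillary Hey1 was at 22.2 CPM in the shared and 79.1 in the other barcodes, and a subcluster of 284 epithelial cells led by Otx2os1, Aox2 and Cyp2a5 held no shared barcode.

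Hey1 in mesenchyme went from 12.3 CPM (11.4 to 13.3) to 54.7 (52.9 to 56.5) in maxillary and from 8.21 (7.35 to 9.15) to 37.1 (35.4 to 38.9) in mandibular molars. The log2 ratios were 2.15 (2.03 to 2.27) and 2.18 (2.01 to 2.35), a 4.45-fold and a 4.52-fold difference. The classes were unlike between the jaws, since a Hey1-high cluster of 374 cells at P1 mandibular met no name. With unnamed clusters placed in the class they matched best the mandibular ratio was 2.82, and without a mitochondrial filter it was 1.51. Within P1 maxillary mesenchyme the shared barcodes had 63.9 CPM (61.7 to 66.0) and the other barcodes 11.8 (9.93 to 14), so the maxillary ratio was 2.38 with the shared barcodes alone and -0.05 without them. The share of mesenchymal cells with a Hey1 UMI was 9.53%, 7.87%, 19.9% and 21.5%, and 1.27%, 0.965%, 3.46% and 3.34% after thinning to 1000 UMIs, against 0%, 0%, 0.488% and 1.45% of immune cells before thinning.

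Dll1 had the larger ratio in mesenchyme, from 0.386 and 0.0744 CPM (21 and 3 UMIs) to 5.48 and 6.29 (356 and 293 UMIs), but at levels under 20 CPM that kept it out of the counts. Its ratios were 3.83 (3.19 to 4.54) in maxillary and 6.40 (4.84 to 8.69) in mandibular molars, the latter resting on 3 UMIs at E15.5. At P1 maxillary Dll1 was at 6.48 CPM in the shared and 0.783 in the other barcodes (347 and 9 UMIs), and the maxillary ratio was 0.84 without the shared barcodes. The share of mesenchymal cells with a Dll1 UMI was 0.363%, 0.111%, 3.61% and 6.67%, against 0.244%, 0.791%, 0% and 0.290% of immune cells. At E15.5 mandibular the share in mesenchyme was thus below that in immune cells, which counts as background. In the same class 5 odontoblast markers summed to 21.3, 32.3, 181 and 380 CPM, and to 216 in the shared and 20.3 in the other barcodes of P1 maxillary. Nes was the most abundant of them except at P1 mandibular, where Dspp, the dentin matrix gene, led with 125 CPM. Their part in the Hey1 and Dll1 levels was not tested, and more such cells and more Hey1 or Dll1 in each of them cannot be told apart from class sums.

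The other members of mesenchyme differed less or not in both jaws. Hes1 was higher at P1 by 0.41 and 0.58, Jag1 lower with ratios of -0.73 and -0.46, and Notch1 lower with -0.28 and -0.96. Heyl moved in opposite directions, 4.37 and 6.92 CPM at E15.5 against 11 and 5.28 at P1, as did Hes1 in epithelium. Neither held under all alternatives: the mandibular ratio of Heyl was 1.02 with unnamed clusters placed, and that of Hes1 was below 0 under 6 alternatives, at the lowest -0.49.

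In pericyte-like cells Notch3 was higher at P1 by 0.56 (0.38 to 0.74) in maxillary and 0.87 (0.67 to 1.07) in mandibular molars, and Heyl by 0.45 (0.12 to 0.77) and 0.94 (0.54 to 1.34). Neither reached the threshold. Without the shared barcodes the maxillary ratio was 0.44 for Notch3 and -0.13 for Heyl. Hes1 in endothelium was likewise higher by 0.48 (0.33 to 0.63) and 0.80 (0.62 to 0.98), though the maxillary ratio was -0.36 without the shared barcodes, while Notch1 there differed by 0.11 and 0.26.

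Between the jaws no member counted by the same rule applied to both stages, whether as higher in maxillary epithelium (0 of 6, beside 0.374% of 6678 genes) or lower (0 of 6, beside 0.225%), or as higher in maxillary mesenchyme (0 of 4, beside 0.636% of 6916 genes) or lower (0 of 4, beside 0.622%). Notch2 in epithelium was lower in maxillary than mandibular molars at both stages, with log2 ratios of -0.62 (-0.80 to -0.44) at E15.5 and -0.56 (-0.62 to -0.50) at P1. The P1 value was -1.54 without the shared barcodes (101 against 295 CPM) and -0.02 with at least 2000 UMIs per barcode. Hey1 in mesenchyme was higher in maxillary molars at both, by 0.58 (0.39 to 0.78) and 0.56 (0.47 to 0.64). The P1 difference in Hey1 was -0.11 with unnamed clusters placed (54.7 against 59.0 CPM), since a Hey1-high mandibular cluster lay outside the mesenchyme, and -1.65 without the shared barcodes. It was 1.24 without a mitochondrial filter (54.6 against 23.2 CPM) and 0.03 with cells thinned to 1000 UMIs. Jaws were separate libraries, so the jaw and the library cannot be told apart.

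Among the subclusters of the P1 epithelium found in both jaws, Notch1, Notch2 and Jag2 each had their highest level in a different one. Subclusters were formed without the Notch pathway genes, and those of the 2 jaws that shared leading genes were set side by side, a match made after the data were seen. Names from markers differed between the jaws for some pairs, so these are called by their leading genes. At P1 maxillary most cells behind these Notch1, Notch2 and Jag2 levels had shared barcodes, 99 of 99 in that led by Amelx, 133 of 135 in that led by Calb1, 130 of 134 in that led by Mindy4, 134 of 141 in that led by Kcnb2 and 52 of 61 in that led by Adamts3, but 35 of 92 in that led by Krt13.

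Notch2 was highest in the subcluster led by Adamts3, Eda and Fat2 (61 maxillary and 95 mandibular cells), at 928 CPM (853 to 1008) and 838 (792 to 887), and in that led by Mindy4, Odam and Pi15 (134 and 116 cells), at 840 (802 to 878) and 712 (678 to 747). Hes1 there was at 306 and 539 CPM in the Mindy4 subcluster, whereas Notch3 was at 3.10 and 2.6. Notch1 was highest in the subcluster led by Kcnb2, Enpp2 and Csmd1 (141 and 93 cells), at 161 CPM (144 to 179) and 135 (119 to 152). The same subcluster had Notch3 at 82.7 and 107 CPM, Notch2 at 420 and 296, and Heyl, at 25.5 and 42.6, above its class level of 6.01 and 7.51. The 2 receptors Notch1 and Notch2 thus had their highest levels in different subclusters in both jaws.

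Ameloblast-like cells, led by Amelx, Mmp20 and Dspp (99 and 119 cells), had Jag1 at 110 CPM (92.7 to 129) and 75.4 (63.6 to 88.7) and Jag2 at 102 (85.8 to 121) and 82.7 (70.3 to 96.6). The receptors were near the limit of detection there. Notch1 had no UMI in the maxillary cells, which allows a level of up to 2.24 CPM, and 0.520 CPM in the mandibular cells, and Notch2 had 3.73 and 1.04 CPM. Hes1 was at 4.48 and 3.12 CPM, against 148 and 167 in the P1 epithelium as a whole. The subcluster led by Calb1 (135 and 101 cells) was alike, with Jag2 at 69.5 and 79.8 CPM, Jag1 at 38.3 and 54.5, Notch1 at 1.51 and 0.791, Notch2 at 2.01 and 9.49, and Hes1 at 8.05 and 6.32. Mandibular subclusters of 80, 72 and 45 cells were also named ameloblast. They matched none in the maxillary molars, and the values above do not cover them.

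Suprabasal oral epithelium-like cells, led by Krt13, Krt4 and Krt6a (92 and 84 cells), had Notch3 at 81.2 and 80.9 CPM, Notch1 at 57.0 and 72.0 and Jag1 at 72.6 and 98.7, with Jag2 at 9.97 and 12.5. The dividing cells with Ube2c and Nusap1 among their leading genes (139 and 80 cells) differed between jaws, with Notch1 at 11.7 and 63.8 CPM and Hes1 at 21.1 and 109. They were matched by genes of cell division alone. Moxd1 and Nppc led the maxillary cells but were leading genes of another mandibular subcluster (70 cells), so the pair may hold unlike cells.

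**Figure D3:**
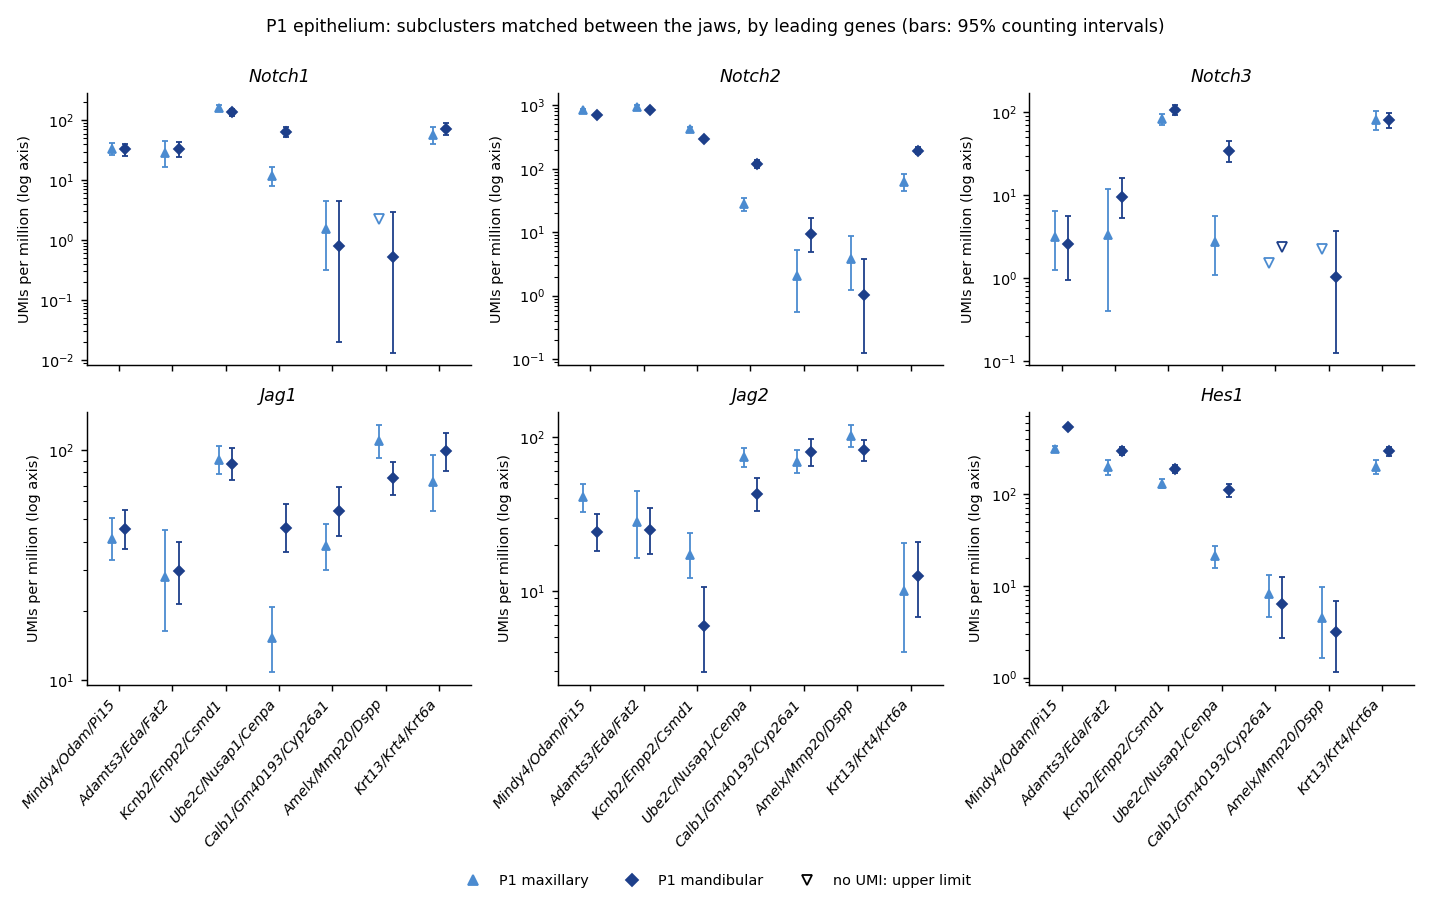
Levels (CPM, log axis, 95% counting intervals) of Notch1, Notch2, Notch3, Jag1, Jag2 and Hes1 in 7 matched subclusters of the P1 epithelium, maxillary and mandibular. Ameloblast-like cells (Amelx, Mmp20, Dspp) show Jag1 and Jag2 at 75.4 to 110 and the receptors and Hes1 below 5.

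At E15.5 a Notch2-high subcluster was present as well, led by Cadm2 and Cntn5 at E15.5 maxillary (35 cells), with 517 CPM (453 to 588) against 91.5 in the class.

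Within the P1 mesenchyme Hey1 was concentrated in the clusters led by Csmd1, Stbd1 and Tnc (714 maxillary and 374 mandibular cells) and by Grik1, Rspo4 and Dok6 (1053 and 553 cells). In the first its level was 143 CPM (136 to 151) and 235 (223 to 248), and in the second 96.7 and 134. The cluster led by Dpt, Gdf10 and Nrg1 (862 and 112 cells) had 7.90 and 2.73. Hey1 levels in the former clusters lay above all intervals of the latter in both jaws.

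The Csmd1 cluster also held the highest levels among these clusters of Notch3, at 64.3 and 143 CPM, and Heyl, at 40.4 and 90.0. Its mandibular cells met no name and stayed outside the mesenchyme class. Dll1 was found there at 13.4 and 25.7 CPM and in the cluster led by Bglap and Ifitm5, genes of mineralized matrix, (374 and 276 cells) at 15.2 and 18.8, and in the Grik1 cluster at 4.50 and 16.6 (56 and 124 UMIs), while the Dpt cluster had 0.168 CPM and none. The Bglap cluster had Dll1 together with low receptors, with Notch1 at 1.40 and 0.759 CPM, Notch2 at 18.1 and 14.6 and Notch3 at 6.28 and 2.09. At P1 maxillary 707 of the 714 cells of the Csmd1 cluster and 1050 of the 1053 of the Grik1 cluster had shared barcodes.

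**Figure D4:**
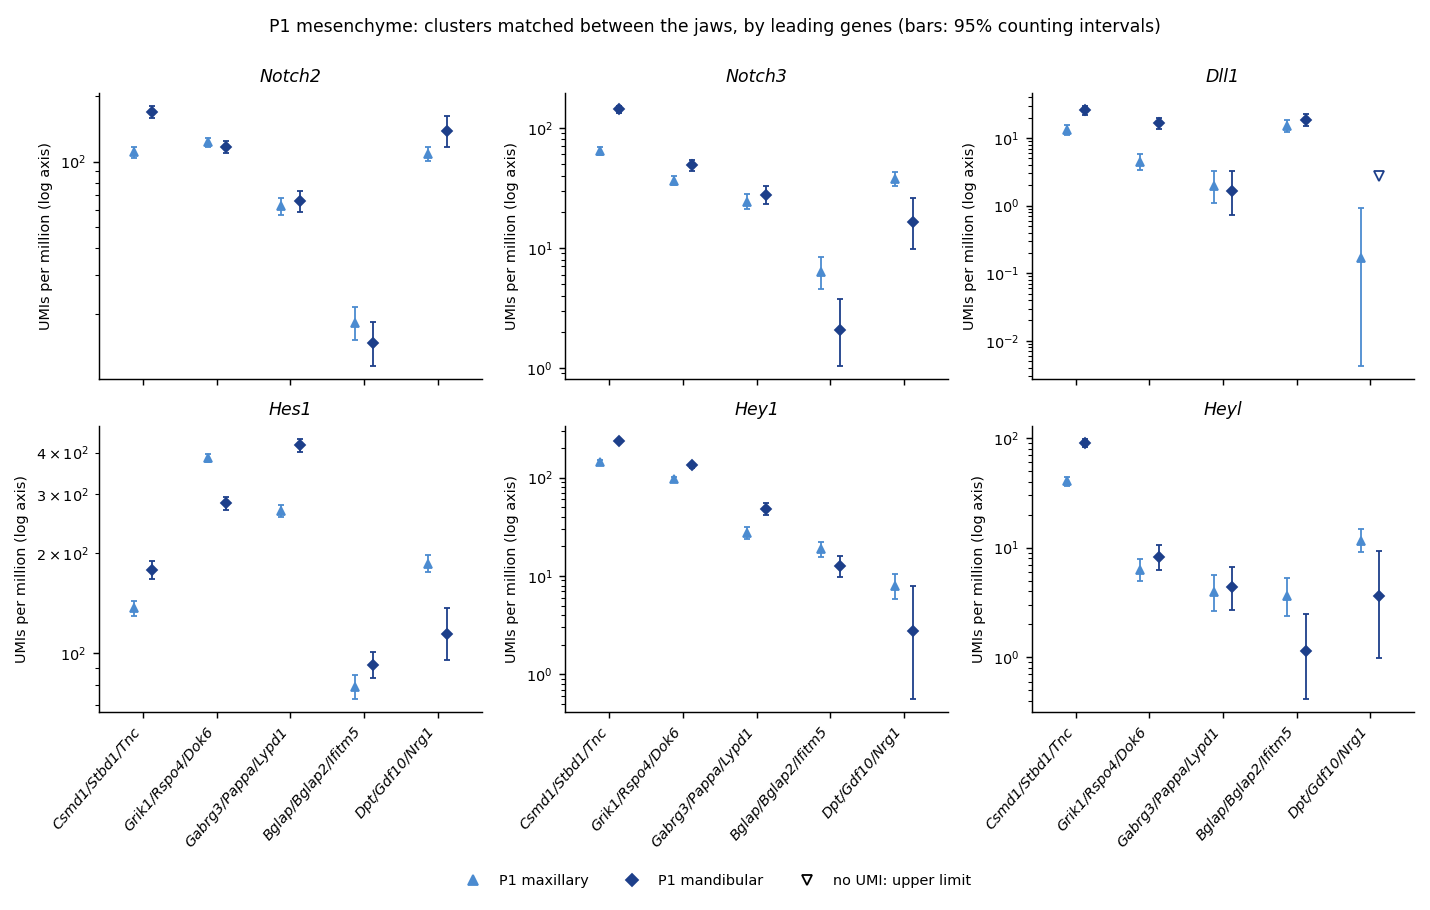
Levels (CPM, log axis, 95% counting intervals) of Notch2, Notch3, Dll1, Hes1, Hey1 and Heyl in 5 chosen matched clusters of the P1 mesenchyme, maxillary and mandibular. Matched pairs led by Spp1, by Ibsp and by genes of cell division are not shown. Hey1 is at 143 and 235 in the Csmd1 cluster and at 7.90 and 2.73 in the Dpt cluster.

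Endothelial subclusters with the arterial markers Gja5, Gja4, Sox17, Efnb2 and Bmx, called arterial-like, held 36 cells at E15.5 maxillary, 29 at E15.5 mandibular and 48 at P1 maxillary, and the 11 cells at P1 mandibular were too few to list. A further 7 cells at E15.5 maxillary with 3 arterial markers, led by Ccl21a, Lyve1 and Reln, are counted among the other endothelial cells. So is an unnamed subcluster of 59 cells at P1 maxillary that matched the arterial list best, with 2 markers detected and Gja4 among its leading genes. Notch1 was at 319 CPM (265 to 380), 308 (248 to 378) and 263 (216 to 316) in them, against 113, 120 and 127 in the other endothelial cells. Jag1 was at 162 (124 to 207), 301 (242 to 370) and 53.5 (33.9 to 80.2), against 21.6, 19.3 and 28.9, and Jag2 at 139, 179 and 102, against 29.8, 28.5 and 31.1. Receptor and both Jagged ligands were higher in the arterial-like cells in each of the 3 libraries.

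Hey1 also differed between the arterial-like cells, at 144 CPM (109 to 187), 125 (88.1 to 172) and 76.7 (52.8 to 108), and the other endothelial cells, at 3.79, 7.53 and 5.0. Hes5 was found in arterial-like cells at E15.5, with 74.5 and 33.8 CPM (29 and 10 UMIs) against 2.04 and 0 in the others, and at 2.32 (1 UMI) at P1 maxillary. Hes1 did not follow them: it was lower in arterial-like than in other endothelial cells at E15.5, 92.5 and 98.0 against 191 and 179 CPM, and higher at P1 maxillary, 304 against 245.

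**Figure D5:**
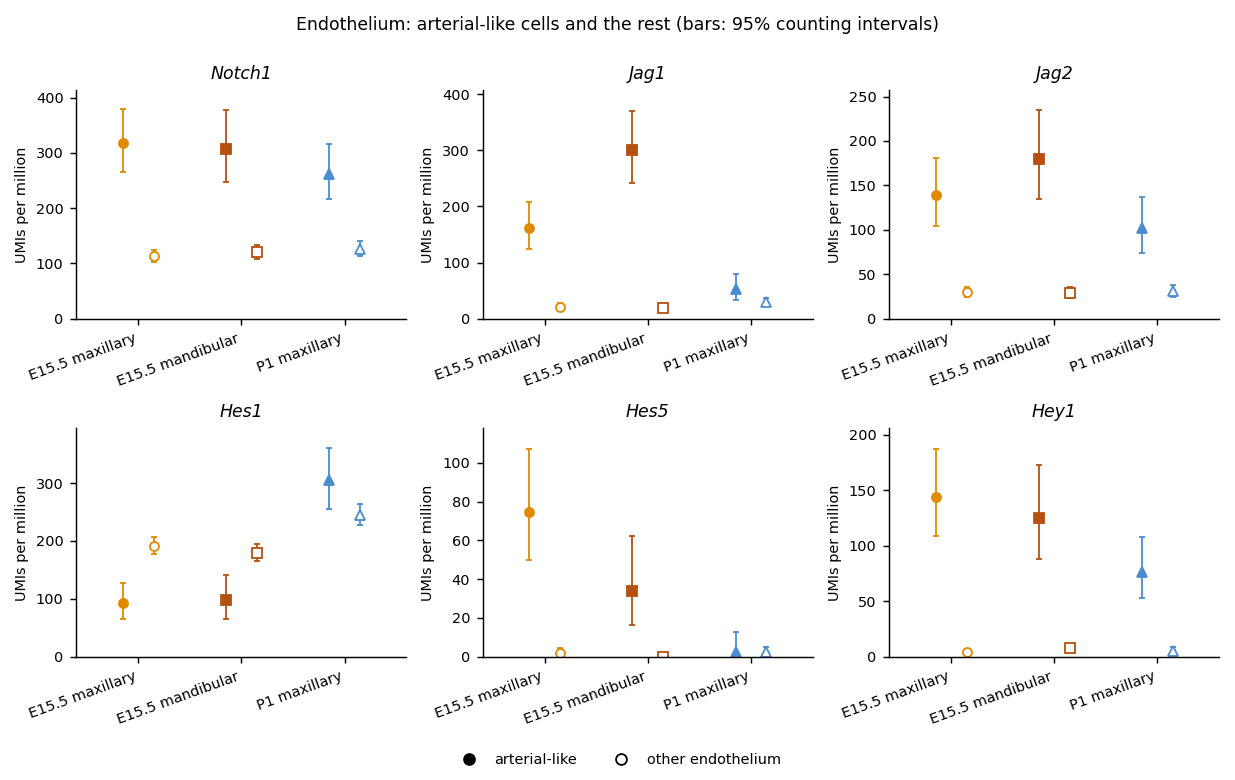
Levels (CPM, linear axis from 0, 95% counting intervals) of Notch1, Jag1, Jag2, Hes1, Hes5 and Hey1 in arterial-like (filled) and other (open) endothelial cells of 3 libraries. Hey1 is at 76.7 to 144 in arterial-like cells and below 8 in the others.

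Of the other pathway genes, 4 of the 23 with enough counts passed the cell type rule in endothelium, beside 5.03% of all genes. These were the receptor Notch4 (46.7, 63.3, 49.2 and 63.3 CPM), the ligand Dll4 (62.1, 57.9, 74.9 and 93.0), the glycosyltransferase Mfng (99.9, 89.6, 120 and 90.4) and the feedback regulator Nrarp (86.8, 77.0, 103 and 86.4). Dll4 had the highest log2 ratios of the 4, at 8.79, 8.01, 8.82 and 7.78. Notch4 and Dll4 met the minimum of 20 CPM only through endothelium, as did Nrarp at E15.5 mandibular. In arterial-like cells Dll4 was at 172, 125 and 160 CPM, against 49.6, 51.4 and 61.8 in other endothelial cells, and Notch4 at 134, 166 and 132, against 36.8, 53.4 and 36.4.

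Pericyte-like cells had 3 of 21 (beside 2.21% of all genes), the target Hey2 (21.4, 71.0, 36.2 and 31.6 CPM), the ubiquitin ligase Neurl1b (21.4, 25.9, 26.3 and 23.7) and Nrarp (68.4, 75.5, 66.9 and 74.9). All 3 met the minimum of 20 CPM only through that class. In mesenchyme 1 of 19 passed (beside 3.24%), the ligand-like gene Dlk1. Immune cells had 1 of 20 (beside 8.78%), Neurl3 (43.9, 54.5, 54.7 and 44.3 CPM), which also met the minimum only through its class. None passed in epithelium (0 of 18, beside 2.05%), glia-like cells (0 of 19, beside 3.43%) or muscle (0 of 19, beside 1.8%). Dlk1 in mesenchyme was at 1163, 2704, 357 and 1400 CPM, and it was the pathway gene that counted as lower in maxillary molars (1 of 20, beside 0.622%), with log2 ratios of -1.22 and -1.97.

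With stage, Dner, a transmembrane protein with Delta-like repeats, counted as higher at P1 in epithelium (3.37, 6.70, 20.3 and 26.0 CPM), as 1 of 19 genes beside 5.66% of all genes, and Dlk1 as lower (73.7, 130, 19.6 and 27.5), as 1 of 19 beside 3.18%. Dner met the minimum of 20 CPM only through P1. Numb, an inhibitor of the pathway, counted as higher at P1 in mesenchyme (73.6, 65.5, 163 and 160 CPM), as 1 of 20 beside 4.62%. In pericyte-like cells Psen2, a subunit of the protease that cuts the receptor, counted as higher, from 10 and 1 UMIs to 22 and 17, as 1 of 24 beside 2.45%. Psen2 likewise met the minimum only through P1, and its mandibular ratio rests on 1 UMI at E15.5. Dlk1 counted as lower in pericyte-like cells (1955, 1784, 581 and 793 CPM), as 1 of 24 beside 0.655%. The stage and jaw values of these other pathway genes are not given for the shared and the other barcodes apart. Without the shared barcodes the share of all genes counted as higher at P1 was 1.55% in epithelium and 0.368% in mesenchyme. Rbpj was found in all of these classes, at 65.9, 57.0, 55.7 and 59.6 CPM in epithelium and 108, 101, 88.6 and 88.7 in mesenchyme, and was higher in immune cells, at 358, 571, 534 and 788. Lfng, which modifies the receptors, was at 10.0, 10.5, 9.72 and 8.20 CPM in epithelium and 18.1, 16.7, 15.2 and 15.2 in endothelium.

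Genes whose levels went most like each member's were ranked by Pearson's r of log2(CPM + 1) over 33 points, each a class in a library, among 12219 genes. The points of a library share its depth and the P1 libraries share barcodes, so r is a description only. Erythroid cells of each library are among the points, with few UMIs of Notch1 (5, 8, 4 and 3) and Hes1 (19, 15, 18 and 15). Their part in r was not tested. Notch3 was closest to Cygb (r = 0.94), Gm39090 (0.93) and Tagln (0.93), and Heyl to Itga7 (0.93), Rem1 (0.90) and Jph2 (0.90). Jag2 was closest to Itga3, Ccdc88c and Rph3al (each 0.90), and Notch1 to Csrp1, Cd151 and Itga6 (each 0.93). Notch2 was closest to Hk2, Runx1 and Irs2 (each 0.89), Jag1 to Cald1 (0.93), Uaca (0.93) and Pdzd2 (0.92), and Dll1 to Ablim3 (0.87), Kcnn3 (0.85) and Prox1 (0.83). Among targets, Hes1 was closest to Arl5a, Map3k4 and Map4 (each 0.96), Hes5 to Hspa12a (0.83), Map6 (0.82) and Cntn1 (0.82), and Hey1 to Lurap1l, Nedd4 and Prkd1 (each 0.92). Between members the highest r was that of Notch1 and Hes1 (0.86), followed by Notch3 and Heyl (0.81).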

How the data were processed

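The deposited matrices hold counts of UMIs per gene and barcode, which the authors made with Cell Ranger (7.0.1 in the matrix headers) on mm10; they were used as deposited. Depth was 109723360, 86659227, 128812956 and 139873101 UMIs in the E15.5 maxillary, E15.5 mandibular, P1 maxillary and P1 mandibular libraries. Barcodes with at least 1000 UMIs were kept (10073, 6911, 17040 and 10120, after 6690 barcodes also present at P1 maxillary were dropped from P1 mandibular). Barcodes more than 3 median absolute deviations above the median mitochondrial share were removed (950, 518, 1229 and 1321), then doublets called by Scrublet in scanpy 1.11.5 at an assumed 0.8% per 1000 barcodes (792, 386, 2319 and 1439). Each library was clustered alone (2000 variable genes without Notch pathway genes, 40 principal components, 15 neighbours, Leiden resolution 1, leidenalg 0.10.2).

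Clusters were named after the marker list with the highest score among those with at least 3 markers each found in at least 10% of cells. These markers need not be the leading genes. A cluster stayed unnamed with a score under 0.4 or too few markers, or for its low depth or its leading genes. At P1 mandibular, clusters of 374, 264 and 45 cells stayed unnamed for their leading genes, and a cluster of 324 cells for its depth. The naming rule was set after the clusters were seen, and the members and lists were chosen with earlier results of these data known. Arterial-like and matched clusters were likewise chosen after the data were seen. Levels are summed UMIs per 1000000 UMIs of a class with exact Poisson intervals, log2 ratios have exact binomial intervals and shares Clopper-Pearson intervals (Python 3.11.15, scipy 1.17.1). All of these cover counting error only, and a count of 0 was read as at most 3 counts. Without replicates no test was run. The calculations were tested on simulated counts. Named genes were all 10 members, the other pathway genes that passed a threshold, Notch4, Dll4, Rbpj, Lfng and Nrarp, and the 3 genes most like each member. Gene positions are those of the GENCODE vM21 annotation on mm10.

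Alternatives were: doublets kept, no mitochondrial filter, 2000 UMIs per barcode, shared barcodes left out of or kept in both P1 libraries, clustering resolution 0.5 or 2.0, means over cells, cells thinned to 1000 UMIs, minimum levels of 10 or 50 CPM, and other fold thresholds. Some single values were also recomputed with cells thinned to 2000 UMIs or with subclusters at resolution 0.5. Chosen after the data were seen were P1 maxillary with shared barcodes alone and unnamed clusters counted in the class they matched best.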

Additional observations from a re-analysis of the deposited data

Results flagged for a closer look

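Hes1 in epithelium and Heyl in mesenchyme differed between stages in opposite directions in the jaws, which is why they are given again here. Neither difference between the jaws was tested, since each stage and jaw was 1 library.

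Hes1 in epithelium was at 287 CPM (278 to 297) at E15.5 maxillary and 148 (143 to 154) at P1 maxillary, a log2 ratio of P1 to E15.5 of -0.95, and at 150 (134 to 166) and 167 (161 to 173) in the mandibular molars, a ratio of 0.16. In P1 maxillary epithelium the shared barcodes had 112 CPM and the other barcodes 289. The mandibular ratio was -0.34 with at least 2000 UMIs per barcode and -0.47 with cells thinned to 1000 UMIs.

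Heyl in mesenchyme was at 4.37 and 11 CPM in the maxillary molars, a log2 ratio of 1.33, and at 6.92 and 5.28 in the mandibular molars, a ratio of -0.39. With the unnamed clusters counted in the class they matched best, the mandibular ratio was 1.02, and the P1 mandibular cluster led by Csmd1, Stbd1 and Tnc, which then entered the mesenchyme, had Heyl at 90.0 CPM. Without the shared barcodes the maxillary ratio was 0.17.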

How the results depend on the processing

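No paired analysis was possible because each stage and jaw was 1 library and the jaws, within which the stages were compared, are not replicates of each other. Counts of members that passed a threshold were recomputed in each comparison under each alternative, and 237 of these values were the same and 29 had moved. Most single values moved by less than their counting interval (4627) and 1310 by more. Of 235 log2 ratios, 70 had the other sign under some alternative (123 of 2549 values), 2 of these values belonging to a ratio past its threshold. In epithelium Jag2 no longer passed the cell type rule (0) with the shared barcodes left out of both P1 libraries, with cells thinned to 1000 UMIs or at a minimum of 50 CPM, beside 1.58%, 2.14% and 2.05% of all genes. In endothelium 2 members passed with means over cells, with thinned cells and with a log2 ratio of 1, namely Notch1 and Jag2 (beside 5.71%, 5.32% and 10.7% of all genes). With a log2 ratio of 1 in place of 2, 4 members passed in pericyte-like cells (Notch1, Notch3, Jag1 and Heyl), 2 in glia-like cells (Notch1 and Hes1) and 2 in muscle (Notch3 and Heyl), but so did 5.49%, 7.44% and 4.04% of all genes. In glia-like cells 1 member passed with 2000 UMIs per barcode and with P1 maxillary limited to shared barcodes (Hes1, beside 3.46% and 3.76%), and 1 at a minimum of 10 CPM (Hes5, beside 3.01%). In muscle 1 passed with 2000 UMIs and with P1 maxillary limited to shared barcodes (Heyl, beside 1.77% and 1.86%). For P1 over E15.5 in epithelium, Notch2 no longer counted (0) with doublets kept, 2000 UMIs, the shared barcodes left out of both, clustering resolution 0.5 or 2.0, means over cells, thinned cells or unnamed clusters in their best class, beside 4.88%, 5.68%, 1.55%, 5.92%, 5.69%, 4.23%, 3.94% and 5.78% of all genes. At a minimum of 10 CPM 2 members counted there (Notch2 and Hey1, beside 5.36%), with a log2 ratio of 0.58 again 2 (Notch2 and Jag2), and 1 as lower (Notch1). In mesenchyme Hey1 no longer counted (0) with the shared barcodes left out of both or at a minimum of 50 CPM, beside 0.368% and 5.28% of all genes, where 4.62% had counted. In endothelium 2 counted as higher with doublets kept (Notch2 and Notch3, beside 1.09%), and in pericyte-like cells 1 with a log2 ratio of 0.58 (Notch1). With 0.58 the share of all genes was 11.2% higher and 7.45% lower in epithelium and 6.65% higher in pericyte-like cells. The 2 values past a threshold that changed sign were Notch3 in endothelium over the rest at P1 mandibular with doublets kept (1.01) and Hey1 at P1 over E15.5 in maxillary mesenchyme with the shared barcodes left out of both (-0.051). Ratios under the threshold that turned include Hes1 in mandibular epithelium (0.16, down to -0.49), Heyl in mandibular mesenchyme (-0.39, up to 1.02) and Notch2 in maxillary endothelium (0.33, down to -0.73) between stages. The causes were not tested. The P1 maxillary cells outside the shared barcodes were shallow, and classes under 100 cells, in particular E15.5 mandibular epithelium, limit what can be read from scarce genes such as Dll1 and Hes5.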

Other observations

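Muscle at E15.5 fell into clusters with unlike Notch genes. The clusters led by Msc and Pax7, genes of muscle progenitors (229 maxillary and 330 mandibular cells), had Notch3 at 102 and 128 CPM, Heyl at 39.8 and 48.4 and Hey1 at 27.8 and 23.1. Those led by Myog and Actc1, genes of differentiating muscle (88 and 152 cells), had Notch3 at 6.90 and 4.53 CPM, Heyl at 15.3 and 8.71 and Hey1 at 8.43 and 2.79. Dll1 had the opposite order, 10.3 and 7.83 CPM in the former against 28.4 and 28.2 in the latter.

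The P1 maxillary library also held clusters led by hormone and neuronal genes. That led by Pomc and Tshb, pituitary hormone genes (225 cells, 16 with a shared barcode), had Hes5 at 95.2 CPM (68 UMIs), and that led by Elavl4 and Neurod1 (271 cells, none shared) had Hes5 at 43.4, Notch1 at 69.4 and Jag2 at 28.5. Unnamed clusters led by Cma1 and Cpa3, mast cell protease genes, had Hes1 at 745 CPM at E15.5 maxillary (35 cells) and 798 at E15.5 mandibular (22 cells). At P1 the clusters led by Cma1 (169 maxillary and 40 mandibular cells) lay in the immune class, which thus held unlike cells at the 2 stages.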
